A study of Gossypium hirsutum with 45 samples.

Results

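The genes described here are the lipid transfer and hydrophobic seed protein genes of upland cotton (Gossypium hirsutum), 251 of the 75376 genes in the deposited expression table. They were taken by their deposited description, which had to hold a probable lipid transfer domain, the protease inhibitor/seed storage/LTP domain family, a hydrophobic seed protein domain or a Swiss-Prot lipid-transfer protein name. The rule uses no expression value. RNA sequencing had been done on leaf, root and stem of seedlings of the line Hengmian HD008, grown in sterilized sand and given 10% PEG 6000 at the stage of 3 leaves. PEG (polyethylene glycol) lowers the water potential around the root and is used to imitate drought. Each tissue was sampled at 0, 10, 30, 60 and 180 min, which makes 15 groups of 3 libraries, 45 libraries altogether. Plants at 0 min had no PEG. Whether the 3 libraries of a group were separate plants is not said in the labels, so a p-value speaks for the spread among libraries, part of which may be technical. Unstressed plants kept to the later times were not analysed here, so effects of PEG and of time or handling cannot be told apart.

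Plant lipid transfer proteins are small, secreted proteins held together by cysteine bridges around a hydrophobic cavity, which binds fatty acids and other lipids in vitro. Most lie in the cell wall, and many are made in the epidermis, where Arabidopsis forms with a GPI membrane anchor are needed for normal export of cuticular wax. Others have been linked to suberin in root, to vascular differentiation and to defence. The hydrophobic seed protein domain is a variant of the same fold, named after a hydrophobic protein of the soybean hull. It also makes up the end of hybrid proline-rich proteins such as DC2.15 of carrot and pEARLI1 of Arabidopsis, which are cell wall or membrane-associated proteins known from defence signalling and cold tolerance.

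The 251 genes fell into 4 groups by description: 139 with the probable lipid transfer domain, 77 with the hydrophobic seed protein domain, 23 with the protease inhibitor/seed storage/LTP domain and 12 with a Swiss-Prot lipid-transfer protein name. Groups were tried in the order hydrophobic seed protein, Swiss-Prot lipid-transfer name, probable lipid transfer and protease inhibitor/seed storage/LTP. Each gene went to the first that matched, so a group leaves out genes matched earlier. A Swiss-Prot name of any kind was given for 41 of the 251. Levels are the deposited FPKM, fragments per kilobase of gene length with the library's depth taken into account, and can be compared between genes per length. At least 1 FPKM in at least 3 of the 45 libraries was reached by 146 of the 251 genes (58.2%, against 72.5% of all genes), while 42 were at 0 in every library and 63 lay between. The 146 were 90 of the probable lipid transfer group, 39 hydrophobic seed protein genes, 11 of the protease inhibitor/seed storage/LTP group and 6 with a Swiss-Prot lipid-transfer name. The description rule also took in Gohir.A12G260000, which carries a lipid-transfer name beside a cytochrome P450 domain, a domain of another enzyme family.

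The genes were spread over both subgenomes, 123 on A and 128 on D chromosomes, in the coordinates of the deposited table. The sources used here do not name the genome build. Many stood side by side: 135 lay in 43 runs of at least 2, taking as neighbours genes whose start lay within 50 kb of the end of the one before. The longest run held 9 hydrophobic seed protein genes on chromosome D11 between 2036695 and 2111688, and the next 8 on chromosome A11 between 2198691 and 2299343. How reads matching several near-identical genes were counted, and whether strand was used, is not stated in the sources used. The split of reads between near-identical neighbours, or between A and D copies, is therefore uncertain.

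Libraries held 16373617 to 21774520 reads counted in genes, and a single read on 1 kb of gene stood for 0.0440 to 0.0899 FPKM. At 0 min the marker lists followed the tissue labels. Chlorophyll-binding and small Rubisco subunit genes (59 genes) summed to a median of 2704 FPKM in leaf, 14.0 FPKM in root and 897 FPKM in stem. The leaf libraries at 0 min spread widely, from 1000 to 4041 FPKM, and the stem libraries ran from 632 to 953 FPKM. The root list, of nitrate and ammonium transporter, Casparian strip membrane protein and dirigent genes (175 genes), summed to a median of 493 FPKM in leaf, 5733 FPKM in root and 279 FPKM in stem. A pair of the deposited columns carries the same name, a root library at 0 min, and these are called libraries x and y. Values of single libraries are given below in the order of the replicate numbers, and as replicate 2, x and y for root at 0 min.

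At 0 min the genes differed in their main tissue. The highest mean of the 3 tissues lay in root for 65 of the 146 genes, in stem for 54 and in leaf for 27. This count was not made over all genes, so it shows no bias particular to the family. Genes of the probable lipid transfer group were 42 of the 65 in root, 36 of the 54 in stem and 12 of the 27 in leaf, and 90 of the 146 altogether. Leaf and stem held the strongest single genes. Summed over all 251 genes, the lowest, median and highest library reached 3615, 3884 and 3924 FPKM in leaf at 0 min, 2885, 3127 and 3677 FPKM in root at 0 min and 5906, 7014 and 7124 FPKM in stem at 0 min. The protease inhibitor/seed storage/LTP group alone summed to a median of 2404 FPKM in leaf at 0 min, 49.0 FPKM in root at 0 min and 3858 FPKM in stem at 0 min.

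**Figure D1:**
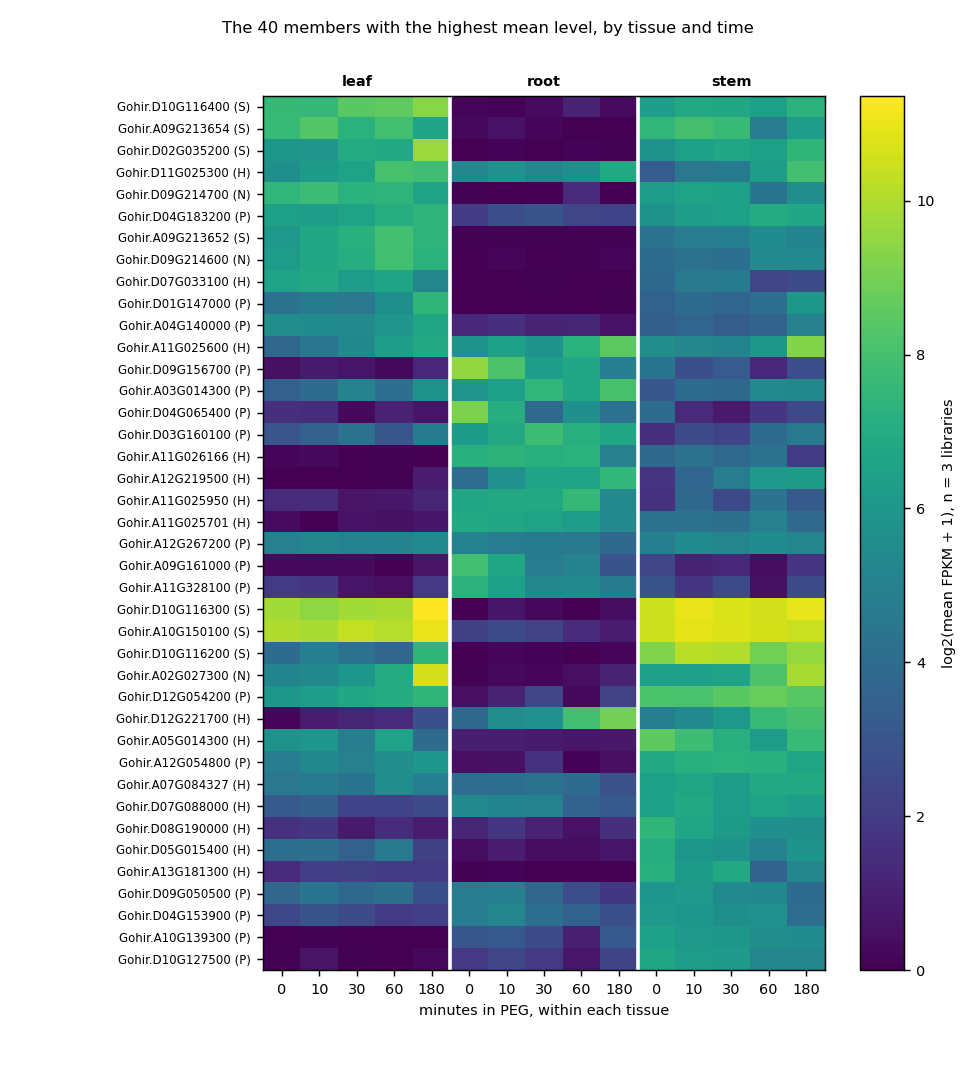
Mean level of the 40 genes with the highest mean over all libraries, as log2(mean FPKM + 1) over the 3 libraries of each group. Columns are minutes in PEG within leaf, root and stem; rows are ordered by the tissue in which the gene peaked at 0 min, and the letter after each name gives its group (P, probable lipid transfer; H, hydrophobic seed protein; S, protease inhibitor/seed storage/LTP; N, Swiss-Prot lipid-transfer name). From top to bottom the blocks are leaf, root and stem. Gohir.D10G116300 lies in the stem block, at 870 FPKM in leaf, 1466 FPKM in stem and listed at 0 in root at 0 min.

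Gohir.D10G116300 (chromosome D10, 19209532 to 19210247, minus strand), of the protease inhibitor/seed storage/LTP group, had the highest mean over all 45 libraries, 981 FPKM. At 0 min it reached 806, 658 and 1145 FPKM in the leaf libraries, was listed at 0 in all root libraries and reached 2108, 930.4 and 1359 FPKM in the stem libraries. Counting the root libraries at a floor of 3 reads over the group, the level was at least 10257-fold higher in leaf than in root. Gohir.A10G150100 (chromosome A10, 87216884 to 87217627, plus strand) followed with a mean of 965 FPKM over all libraries. It had 1018, 785 and 1279 FPKM in leaf at 0 min, 2.73, 2.38 and 5.19 FPKM in root at 0 min and 2127, 834 and 1342 FPKM in stem at 0 min. Both were shoot genes, and no root library came near a leaf or stem library. The D10 neighbours of Gohir.D10G116300 differed in which shoot part they favoured. Gohir.D10G116200 had 14.97 ± 4.64 FPKM in leaf and 594 ± 110.0 FPKM in stem at 0 min (SD, n = 3 each), a difference of -5.24 on the log2 scale (limma, adjusted p 1.26e-13). Gohir.D10G116400 had 193 ± 47.3 FPKM in leaf and 82.4 ± 13.8 FPKM in stem at 0 min (SD, n = 3 each), a difference that was not called without any 1 of leaf 0 min replicate 3, or stem 0 min replicate 2. Gohir.D10G116500, next in that run, was at 0 in every library.

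Root had high levels of other genes. The 5 probable lipid transfer genes Gohir.D09G156700, Gohir.D04G065400, Gohir.A09G161000, Gohir.A11G328100 and Gohir.A05G346800 averaged 0.403, 1.94, 0.212, 2.84 and 0.0429 FPKM in leaf at 0 min, against 724, 550, 241, 159 and 152 FPKM in root at 0 min. No root library overlapped a leaf library for any of the 5. For Gohir.D09G156700 (chromosome D09, 46204756 to 46205406, minus strand) the single values were 0.637, 0.475 and 0.0973 FPKM in leaf, 923, 583 and 667 FPKM in root and 12.01, 7.92 and 40.2 FPKM in stem, with a leaf-minus-root difference of -9.01 ± 0.61 on the log2 scale (limma, adjusted p 1.42e-14). Several hydrophobic seed protein genes of the A11 and D11 runs also had root as their main tissue, among them Gohir.A11G026166, at 0.126 ± 0.218 FPKM in leaf and 141 ± 30.4 FPKM in root (SD, n = 3 each). Hydrophobic seed protein genes were found at the other extreme too. Gohir.D08G258400, named after a proline-rich protein, and Gohir.A08G238000 averaged 91.7 and 79.6 FPKM in leaf at 0 min, against 1.57 and 0.515 FPKM in stem at 0 min. The leaf libraries spread widely, at 76.1, 175 and 23.7 FPKM for Gohir.D08G258400. Stem was the main tissue of Gohir.A10G139300 and Gohir.D10G127500, probable lipid transfer genes. Gohir.A10G139300 was listed at 0 in all leaf libraries at 0 min and had 59.4, 67.2 and 141 FPKM in stem at 0 min. Gohir.D10G127500 had 0.114, 0.0596 and 0 FPKM in leaf at 0 min and 34.1, 112 and 175 FPKM in stem at 0 min.

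Tissue differences at 0 min were tested with limma on log2(FPKM + 1) in a fit of all 45 libraries, with Benjamini-Hochberg adjustment over 54622 genes and calls at an adjusted p under 0.05. Leaf and root differed in 106 of the 146 genes, 41 higher and 65 lower in leaf. Of all genes tested 47.2% were called, 12961 genes higher and 12825 lower in leaf. Leaf and stem differed in 55 of the 146, 13 higher and 42 lower in leaf, where 30.7% of all genes were called, 17.7% higher and 12.9% lower. Root and stem differed in 103 of the 146, 50 higher and 53 lower in root. Of all genes 42% were called, 11521 genes higher and 11411 lower in root. By group, of the 11 tested genes of the protease inhibitor/seed storage/LTP group 9 were higher in leaf than in root and 2 lower, while of the 90 tested probable lipid transfer genes 18 were higher and 41 lower.

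In leaf, PEG was followed by higher levels of many of these genes, and most of it came late: of the 35 genes called at any time, 26 were first called at 180 min. At 180 min 32 of the 91 genes tested in leaf were called, 29 higher and 3 lower than at 0 min, where 9.89% of all genes tested were called higher and 9.61% lower. Their median log2 change was 0.57, against -0.04 over all genes. No gene of the 91 was called at 10 min (limma, adjusted p; 4 had an unadjusted p under 0.05), where 0.884% of all genes were called higher and 0.625% lower. A pseudocount of 0.1 gave 2 at that time. At 30 min 6 were called higher and 2 lower, where 8.33% of all genes were called higher and 9.5% lower. 1 of these calls, that of Gohir.D04G065400, had passed the filter on low values only through the libraries at 0 min. At 60 min 4 were called higher and 1 lower, where 2.04% and 1.9% of all genes were called. The F test over the 4 times called 31 of the 91, where it called 30% of all genes. Without leaf 30 min replicate 1, leaf 30 min replicate 3 or leaf 0 min replicate 2 the count at 30 min was 3, 4 and 5 in that order. The count at 60 min was 3 without leaf 0 min replicate 3 and 2 without leaf 60 min replicate 1 or replicate 3. The calls at 180 min were 20 higher and 1 lower of 54 probable lipid transfer genes, 5 higher of 9 in the protease inhibitor/seed storage/LTP group, 3 higher and 2 lower of 25 hydrophobic seed protein genes and 1 higher of 3 with a Swiss-Prot lipid-transfer name. In 31 of the 32 the libraries at 180 min did not overlap those at 0 min. Of the 32, 24 stayed called whichever of the 6 libraries compared was left out, and 5 had passed the filter on low values only through their higher group. In whole tissue, more cells that make a transcript and more transcript per cell cannot be told apart. The laccase, fasciclin and COBRA-like genes of xylem and secondary wall (106 genes) summed to 715 to 1526 FPKM in leaf at 10 min and 1133 to 1424 FPKM at 30 min, against 432 to 630.4 FPKM at 0 min, with no overlap. At 180 min they summed to 479 to 609 FPKM, overlapping the libraries at 0 min. The root list summed to 551 to 673 FPKM in leaf at 30 min and 519 to 558 FPKM at 60 min, against 410.0 to 504 FPKM at 0 min, also with no overlap. The part of these lists in the leaf results was not tested.

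**Figure D2:**
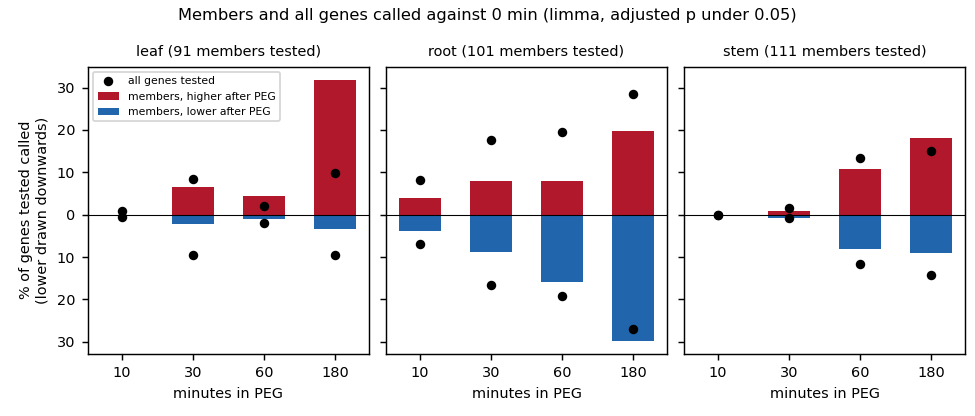
Share of the tested genes of the family called against 0 min at each time (bars, % of genes tested; higher upwards in red, lower downwards in blue), beside the share of all genes tested (black points). In leaf at 180 min the red bar stands at 31.9%, above the point at 9.89%; in root at 60 min it stands at 7.92%, below the point at 19.5%.

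On the log2(FPKM + 1) scale, which understates the change of low genes, the largest rise in leaf was that of Gohir.A02G027300 (chromosome A02, 3458743 to 3459571, minus strand), named non-specific lipid-transfer protein 1. It had 2295, 1538 and 748 FPKM at 180 min, against 41.9, 24.8 and 34.5 FPKM at 0 min (log2 change 5.35 ± 0.52, adjusted p 1.66e-05, limma). All of its libraries at 180 min lay far above all those at 0 min, with replicate 1 the highest and replicate 3 the lowest. The means along the course were 33.7, 38.5, 61.7, 127 and 1527 FPKM at 0, 10, 30, 60 and 180 min. Gohir.D02G035200, of the protease inhibitor/seed storage/LTP group, had 1045, 882 and 499 FPKM at 180 min, against 39.0, 43.5 and 109 FPKM at 0 min (log2 change 3.74 ± 0.48, adjusted p 0.000167). Its highest library at 0 min and its lowest at 180 min were well apart. The D10 neighbours described above rose too. Gohir.D10G116200 had 138, 182 and 201 FPKM at 180 min, against 19.9, 10.7 and 14.3 FPKM at 0 min (log2 change 3.47 ± 0.38, adjusted p 4.88e-05). Gohir.D10G116300, already the most abundant, had 3009, 2336 and 2553 FPKM at 180 min, against 806, 658 and 1145 FPKM at 0 min (log2 change 1.63 ± 0.45, adjusted p 0.0222). Its call was lost without any 1 of leaf 0 min replicates 1 and 2, or leaf 180 min replicates 1, 2 and 3 (adjusted p 0.0517 to 0.0838). Gohir.D10G116400 averaged 645 ± 23.7 FPKM at 180 min, against 193 ± 47.3 FPKM at 0 min (SD, n = 3 each; log2 change 1.76 ± 0.47, adjusted p 0.0183), and was not called without any 1 of leaf 0 min replicate 2, or leaf 180 min replicates 1, 2 and 3 (adjusted p 0.0505 to 0.0679).

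Among probable lipid transfer genes, Gohir.D01G147000 had 225, 150.5 and 148 FPKM at 180 min, against 17.99, 19.3 and 17.6 FPKM at 0 min (log2 change 3.16 ± 0.33, adjusted p 2.80e-05). It was already called at 60 min, with 43.7, 61.5 and 44.9 FPKM (log2 change 1.39 ± 0.33, adjusted p 0.0338). That earlier call was lost when any 1 of the 6 libraries compared was left out (adjusted p up to 0.104). Gohir.A12G212400 was under 1 FPKM at 0 min and was called higher at 30, 60 and 180 min, the call at 60 min not holding without any 1 of leaf 0 min replicates 2 and 3, or leaf 60 min replicates 1 and 3 (adjusted p 0.0574 to 0.0738). It had 9.45, 7.96 and 7.22 FPKM at 30 min (log2 change 2.84 ± 0.35, adjusted p 0.000352) and 19.7, 23.7 and 22.3 FPKM at 180 min (log2 change 4.15 ± 0.35, adjusted p 6.10e-06), against 0.462, 0.160 and 0.247 FPKM at 0 min. The neighbours Gohir.D01G136000 and Gohir.D01G136100 on chromosome D01 were listed at 0 in all leaf libraries at 0 min and reached 11.8, 17.1 and 30.0 FPKM and 3.02, 5.99 and 7.64 FPKM at 180 min. Against a floor of 3 reads over the group these levels were at least 262-fold and 69.5-fold higher. Both genes passed the filter on low values only through that group. Gohir.D04G183200, named after a GPI-anchored lipid transfer protein, the type needed for wax export in Arabidopsis, had 219, 152 and 131 FPKM at 180 min, against 68.9, 85.0 and 109 FPKM at 0 min (log2 change 0.91 ± 0.29, adjusted p 0.0406). The call did not hold without any 1 of leaf 0 min replicates 1 and 2, or leaf 180 min replicates 1 and 2 (adjusted p 0.0823 to 0.163).

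Other probable lipid transfer genes, with no Swiss-Prot name, rose in leaf at 180 min as well. Gohir.A08G079600 had 90.4, 127 and 154 FPKM at 180 min, against 27.7, 23.4 and 35.4 FPKM at 0 min (log2 change 2.05 ± 0.25, adjusted p 0.000105). Gohir.A13G221300 had 109, 75.0 and 69.4 FPKM at 180 min, against 23.5, 24.7 and 19.0 FPKM at 0 min (log2 change 1.85 ± 0.22, adjusted p 7.99e-05). Gohir.D13G225300 and Gohir.A01G154800 averaged 62.9 and 62.1 FPKM at 180 min, against 14.2 and 14.7 FPKM at 0 min, with log2 changes of 2.10 and 2.11. In all 4 the groups were apart and the call held whichever library was left out. In stem, Gohir.A08G079600 was called lower at 60 min, with 3.09, 2.81 and 2.59 FPKM at 60 min, against 14.3, 6.04 and 8.06 FPKM at 0 min (log2 change -1.38 ± 0.34, adjusted p 0.0132), a call lost without stem 60 min replicate 3 (adjusted p 0.0519).

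The 3 genes called lower in leaf at 180 min were Gohir.A07G029100, Gohir.D07G033100 and Gohir.A05G000700. Gohir.A07G029100, a hydrophobic seed protein gene, had 5.91, 8.60 and 8.54 FPKM at 180 min, against 27.6, 54.0 and 24.2 FPKM at 0 min (log2 change -1.99 ± 0.42, adjusted p 0.00520). Gohir.D07G033100, named after the carrot protein DC2.15, had 14.8, 42.3 and 46.4 FPKM at 180 min, against 86.7, 122 and 72.2 FPKM at 0 min (log2 change -1.54 ± 0.43, adjusted p 0.0241). This second call was lost without any 1 of leaf 0 min replicates 1 and 2, or leaf 180 min replicate 1 (adjusted p 0.0518 to 0.10002). Gohir.A05G000700, a probable lipid transfer gene, had 0.256, 0.329 and 0.279 FPKM at 180 min, against 1.66, 2.59 and 1.11 FPKM at 0 min. All 3 had groups that did not overlap. Earlier, at 30 min, the genes called lower were Gohir.A11G328100 and Gohir.D04G065400, 2 of the 5 genes with high root levels, which in leaf at 0 min stood at 2.87, 2.99 and 2.66 FPKM and 1.23, 2.70 and 1.89 FPKM. Their leaf libraries at 30 min held 0.904, 0.330 and 0.386 FPKM (log2 change -1.34 ± 0.30, adjusted p 0.00891) and 0.357, 0 and 0.275 FPKM. Gohir.D04G065400 was tested only because of its libraries at 0 min, the higher group, so its call is no support for a fall, and it was lost whichever of the 6 libraries was left out (adjusted p up to 0.164).

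Not every abundant shoot gene rose in leaf. Gohir.A09G213654 and Gohir.A09G213652, neighbours on chromosome A09 in the protease inhibitor/seed storage/LTP group, differed. Gohir.A09G213652 was called higher at 30, 60 and 180 min. It had 212, 181 and 344 FPKM at 60 min, against 63.0, 86.5 and 48.0 FPKM at 0 min (log2 change 1.87 ± 0.33, adjusted p 0.00848). The call at 30 min was lost without any 1 of leaf 0 min replicates 1 and 3, or leaf 30 min replicates 1 and 3 (adjusted p 0.0637 to 0.0804). Gohir.A09G213654 had 23.8, 141 and 125 FPKM at 180 min, against 259, 265 and 73.6 FPKM at 0 min (log2 change -1.18 ± 0.72, adjusted p 0.281), groups that overlap and were not called different. On chromosome D09 a like pair of neighbours, both with Swiss-Prot lipid-transfer names, had mean levels of 151 FPKM (Gohir.D09G214600) and 98.3 FPKM (Gohir.D09G214700) at 180 min, against 75.8 and 177 FPKM at 0 min, with log2 changes of 1.05 and -0.96 (adjusted p 0.118 and 0.154), neither called.

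**Figure D3:**
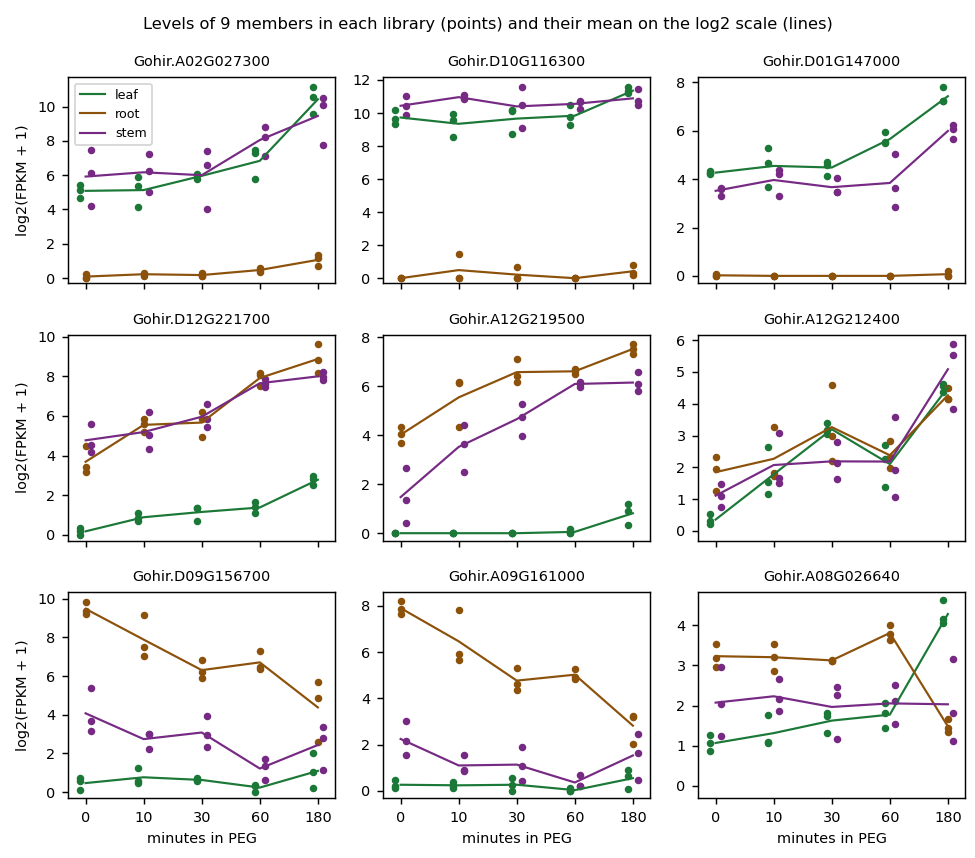
Level of 9 named genes in every library (points) and the mean of the log2 values (lines) in leaf (green), root (brown) and stem (purple), as log2(FPKM + 1) against minutes in PEG. Gohir.A02G027300 and Gohir.D01G147000 climb in leaf and stem and stay near 0 in root. Gohir.D12G221700 and Gohir.A12G219500 climb in root and stem. Gohir.D12G221700 also rises in leaf at a lower level, from a mean of 0.127 FPKM at 0 min to 5.91 FPKM at 180 min. Gohir.D09G156700 and Gohir.A09G161000 drop in root, and Gohir.A08G026640 rises in leaf and falls in root at 180 min.

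In root more genes of the family were called lower than higher at 60 and 180 min. Set against all genes, the share called higher was smaller, while the share called lower was below or near theirs. At 10 min 4 of the 101 genes tested were called higher and 4 lower, where 8.16% of all genes were called higher and 7.03% lower. At 30 min 8 were higher and 9 lower (17.6% and 16.6% of all genes). At 60 min 8 were higher and 16 lower, or 7.92% and 15.8% of those tested (19.5% and 19.1% of all genes). At 180 min 20 were higher and 30 lower, or 19.8% and 29.7% of those tested (28.5% and 26.9% of all genes). Over the 4 times the F test called 47 of the 101, where it called 66.8% of all genes. 1 of the 8 calls at 10 min had passed the filter only through its higher group. The count at 10 min fell to between 2 and 5 without root 0 min replicate 2, library x or library y, or root 10 min replicate 1 or replicate 2. The median log2 change at 180 min was -0.53, against a median over all genes of -0.00368. The calls at 180 min were 17 higher and 18 lower of 68 probable lipid transfer genes, 3 higher and 9 lower of 27 hydrophobic seed protein genes, 2 lower of 3 in the protease inhibitor/seed storage/LTP group and 1 lower of 3 with a Swiss-Prot lipid-transfer name. Of the 50, 34 stayed called whichever of the 6 libraries was left out, 44 had groups that did not overlap, and 2 had passed the filter only through their higher group. Summed over the family, the lowest, median and highest library held 2025, 2129 and 2917 FPKM at 180 min, against 2885, 3127 and 3677 FPKM at 0 min, groups that overlap by 1 library. Root also differed in the marker lists. The xylem and secondary wall list summed to 1408 to 1953 FPKM at 10 min, 1717 to 1953 FPKM at 30 min, 1464 to 1628 FPKM at 60 min and 2569 to 4951 FPKM at 180 min, against 821 to 1115 FPKM at 0 min. The root list summed to 8280.3 to 8351 FPKM at 60 min and 7528 to 15509 FPKM at 180 min, against 4733 to 6680.4 FPKM at 0 min. The green tissue list summed to 11.5 to 12.3 FPKM at 10 min, 9.39 to 10.4 FPKM at 30 min and 44.7 to 68.2 FPKM at 180 min, against 13.1 to 23.1 FPKM at 0 min. None of these groups overlapped 0 min, and the part of the 3 lists in the root results was not tested. The sum over all genes was itself higher in root at 180 min, at 872790 to 1029700 FPKM, against 601212 to 651525 FPKM at 0 min. Summed levels in root at 180 min are to be read beside it.

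The 5 probable lipid transfer genes given above with high root levels fell, 4 of them with the largest log2 falls of the family at 180 min, while Gohir.A11G328100 fell less. Gohir.A05G346800 and Gohir.A11G328100 had been named only for falls, the others of the 5 for their leaf-root difference and for falls. The 5 therefore do not speak for all genes high in root. Gohir.D11G129600, at 0.759 FPKM in leaf at 0 min and higher in root, was called higher in root at 30 min, as given below. Gohir.D04G065400 (chromosome D04, 12312082 to 12312951, minus strand) had 17.4, 12.5 and 10.9 FPKM at 30 min and 10.5, 17.0 and 25.3 FPKM at 180 min, against 940.5, 415 and 294 FPKM at 0 min (log2 change -5.09 ± 0.67, adjusted p 8.03e-05 at 30 min; log2 change -4.79 ± 0.67, adjusted p 4.46e-05 at 180 min, limma). At both times every library lay below every library at 0 min. Gohir.D09G156700 had mean levels of 724, 291, 81.0, 108 and 27.6 FPKM at 0, 10, 30, 60 and 180 min. Its libraries held 5.13, 28.0 and 49.8 FPKM at 180 min, against 923, 583 and 667 FPKM at 0 min (log2 change -5.09 ± 0.66, adjusted p 2.34e-05). Gohir.A09G161000 (chromosome A09, 76224667 to 76225413, minus strand) had 3.10, 8.51 and 8.09 FPKM at 180 min, against 291, 201 and 232 FPKM at 0 min (log2 change -5.08 ± 0.48, adjusted p 1.29e-06). For both of these genes, too, the groups stood far apart. Gohir.A05G346800 had 1.04, 3.72 and 3.85 FPKM at 180 min, against 303, 77.5 and 74.2 FPKM at 0 min (log2 change -5.08 ± 0.83, adjusted p 0.000170). Gohir.A11G328100 had 13.2, 34.0 and 27.2 FPKM at 180 min, against 148, 144 and 185 FPKM at 0 min (log2 change -2.72 ± 0.43, adjusted p 0.000133). All 5 were called lower at 30, 60 and 180 min, and each of these calls held whichever library was left out. Of the 5, Gohir.D04G065400 alone was among the 4 genes called lower at 10 min, with 38.8, 36.4 and 333 FPKM (log2 change -2.62 ± 0.67, adjusted p 0.0176). This early call was lost without any 1 of root 0 min replicate 2, or root 10 min replicates 1 and 2 (adjusted p 0.0791 to 0.0878).

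Other falls in root included Gohir.A09G049400, with 0.597, 0.375 and 0.615 FPKM at 180 min, against 15.4, 14.9 and 13.3 FPKM at 0 min (log2 change -3.35 ± 0.34, adjusted p 2.60e-06). Gohir.D12G213500, of the protease inhibitor/seed storage/LTP group, had 1.24, 3.06 and 5.12 FPKM at 180 min, against 31.0, 24.3 and 68.3 FPKM at 0 min (log2 change -3.33 ± 0.38, adjusted p 7.98e-06). Gohir.A07G174300, named non-specific lipid-transfer protein 2, was called lower at all 4 times. It had 1.19, 1.04 and 0.313 FPKM at 10 min, 0.727, 0.107 and 0.197 FPKM at 60 min and 0.133, 0.556 and 0.342 FPKM at 180 min, against 5.06, 3.54 and 10.6 FPKM at 0 min (log2 change -1.92 ± 0.31, adjusted p 0.000938 at 10 min; log2 change -2.36 ± 0.31, adjusted p 2.31e-05 at 180 min).

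Against this, a pair of hydrophobic seed protein genes rose. Gohir.D12G221700 (chromosome D12, 57885925 to 57886338, plus strand) had 289, 456 and 794 FPKM at 180 min, against 21.3, 7.86 and 9.75 FPKM at 0 min (log2 change 5.20 ± 0.43, adjusted p 3.75e-07). Its mean was 13.0, 46.8, 53.2, 246 and 513 FPKM at 0, 10, 30, 60 and 180 min, and it was called higher at all 4 times. Gohir.A12G219500 (chromosome A12, 103931948 to 103932367, plus strand) had 158, 186 and 211 FPKM at 180 min, against 11.8, 19.4 and 15.4 FPKM at 0 min (log2 change 3.50 ± 0.41, adjusted p 8.13e-06). It already had 84.9, 139 and 71.6 FPKM at 30 min (log2 change 2.56 ± 0.41, adjusted p 0.000327). For both genes the libraries at 30, 60 and 180 min all lay above those at 0 min. Probable lipid transfer genes that rose included Gohir.A11G124400, named after xylogen, a lipid transfer type protein of Zinnia that acts in vascular differentiation, and Gohir.D11G129600. Gohir.A11G124400 had 69.5, 61.7 and 138 FPKM at 30 min, against 22.3, 18.6 and 21.8 FPKM at 0 min (log2 change 1.96 ± 0.40, adjusted p 0.00189). At 180 min it had 92.7, 40.3 and 23.1 FPKM (log2 change 1.06 ± 0.40, adjusted p 0.0365). The later call was lost without any 1 of root 0 min replicate 2 and libraries x and y, or root 180 min replicates 1 and 2 (adjusted p 0.0623 to 0.188). Gohir.D11G129600 had 84.8, 76.5 and 175 FPKM at 30 min, against 25.5, 21.9 and 25.8 FPKM at 0 min (log2 change 2.05 ± 0.40, adjusted p 0.00154). At 60 min its call was lost without any 1 of root 0 min library x, or root 60 min replicate 3 (adjusted p 0.0515 to 0.0588). The means of both genes in root were highest at 30 min. Gohir.A03G014300 had 348, 259 and 190.5 FPKM at 180 min, against 61.1, 59.3 and 58.1 FPKM at 0 min (log2 change 2.10 ± 0.25, adjusted p 9.47e-06).

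Among the rises in root at 180 min, several were carried most by replicate 1 of that time. The neighbours Gohir.D09G219400 and Gohir.D09G219500 on chromosome D09 had 66.6, 21.8 and 7.56 FPKM and 43.6, 8.25 and 1.83 FPKM at 180 min, against 1.77, 3.13 and 3.59 FPKM and 1.02, 1.86 and 0.368 FPKM at 0 min (log2 change 2.66 ± 0.59, adjusted p 0.00171; log2 change 2.40 ± 0.73, adjusted p 0.0131). The first gene kept its call whichever library was left out, and the second lost it without root 180 min replicate 1 (adjusted p 0.0542). Gohir.D04G073100, named after VAS, a lipid transfer type gene of Arabidopsis, had 20.6, 4.26 and 0.698 FPKM at 180 min, against 0.277, 0.903 and 0.469 FPKM at 0 min (log2 change 1.92 ± 0.63, adjusted p 0.0196). These groups overlap, and the call was lost without any 1 of root 0 min replicate 2, or root 180 min replicate 1 (adjusted p 0.0582 to 0.0778). Gohir.A05G333400 had 38.1, 11.3 and 1.53 FPKM at 180 min, against 0.692, 2.15 and 0.878 FPKM at 0 min (log2 change 2.31 ± 0.67, adjusted p 0.00946). In each of these 4 genes replicate 1 was the highest and replicate 3 the lowest of the libraries at 180 min, the opposite order to that in Gohir.A11G026166 and Gohir.D11G025575, described below. Gohir.D02G195700 rose more evenly, with 7.60, 6.27 and 9.13 FPKM at 180 min, against 1.26, 2.47 and 3.39 FPKM at 0 min (log2 change 1.40 ± 0.26, adjusted p 0.000453).

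In stem nearly all calls came at 60 and 180 min, and they went both ways. No gene of the 111 tested was called at 10 min (limma, adjusted p; 8 had an unadjusted p under 0.05), where 0.0021% of all genes were called higher and 0% lower. At 30 min 1 was called higher and 1 lower, where 1.61% of all genes were called higher and 0.759% lower, and neither stayed called with each library left out. At 60 min 12 were higher and 9 lower, where 13.3% and 11.6% of all genes were called. At 180 min 20 were higher and 10 lower, where 15% and 14.3% of all genes were called. The F test over the 4 times called 30 of the 111, where it called 34.4% of all genes, and 19 without stem 60 min replicate 3. The median log2 change was -0.17, against a median over all genes of -0.00185. The 30 calls at 180 min were 13 higher and 8 lower of 66 probable lipid transfer genes, 5 higher and 2 lower of 31 hydrophobic seed protein genes, 2 higher of 3 with a Swiss-Prot lipid-transfer name, and none of 11 in the protease inhibitor/seed storage/LTP group. Many of these calls depended on single libraries: 4 of the 21 calls at 60 min and 14 of the 30 at 180 min held whichever of the 6 libraries was left out. At 60 min 1 call and none at 180 min had passed the filter only through the higher group. Without stem 60 min replicate 3 the 60 min count was 5, without stem 0 min replicate 3 it was 7, without stem 0 min replicate 2 it was 12 and without stem 60 min replicate 1 it was 13. Without stem 180 min replicate 2 the 180 min count was 16. The xylem and secondary wall list summed to 654 to 901 FPKM in stem at 180 min, against 1476 to 2068 FPKM at 0 min. At 60 min the root list summed to 569 to 696 FPKM, against 272 to 402 FPKM at 0 min, and the green tissue list to 423 to 531 FPKM, against 632 to 953 FPKM at 0 min. None of these groups overlapped, and the part of the 3 lists in the stem results was not tested.

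The largest log2 rise in stem at 180 min was that of Gohir.D11G025300, named after pEARLI1, with 181, 345 and 216 FPKM at 180 min, against 23.6, 0.668 and 2.85 FPKM at 0 min (log2 change 5.47 ± 0.94, adjusted p 0.00124). Its libraries at 0 min differed widely, replicate 1 being the highest, and all stood below those at 180 min. At 60 min its call was lost without any 1 of stem 0 min replicates 2 and 3 (adjusted p 0.0527 to 0.0562). Gohir.A12G219500, which rose in root, had 72.1, 62.3 and 68.1 FPKM at 60 min and 66.7, 94.0 and 55.1 FPKM at 180 min, against 5.30, 0.319 and 1.58 FPKM at 0 min (log2 change 4.62 ± 0.55, adjusted p 0.000311 at 60 min; log2 change 4.68 ± 0.55, adjusted p 0.000103 at 180 min). The groups at 60 and 180 min overlapped each other and lay above all libraries at 0 min. Gohir.D12G221700 had 249, 297 and 227 FPKM at 180 min, against 47.7, 21.8 and 17.3 FPKM at 0 min (log2 change 3.24 ± 0.46, adjusted p 0.000351). Gohir.A11G025600 reached 929, 708 and 171 FPKM at 180 min, against 8.29, 78.7 and 57.6 FPKM at 0 min (log2 change 3.78 ± 0.76, adjusted p 0.00303). Gohir.A12G212400 had 44.97, 13.3 and 58.2 FPKM at 180 min, against 1.81, 1.13 and 0.683 FPKM at 0 min (log2 change 3.97 ± 0.66, adjusted p 0.000980). In each of these genes the libraries at 180 min did not overlap those at 0 min. Gohir.A02G027300, which rose in leaf, had 1118, 1445 and 216 FPKM in stem at 180 min, against 174, 68.3 and 17.4 FPKM at 0 min (log2 change 3.54 ± 1.03, adjusted p 0.0222). Its stem call was lost without any 1 of stem 0 min replicate 3, or stem 180 min replicates 1 and 2 (adjusted p 0.0769 to 0.0970).

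The largest log2 falls in stem at 180 min were in probable lipid transfer genes. Gohir.A04G112700 had 6.73, 4.06 and 5.75 FPKM at 180 min, against 51.3, 22.6 and 31.5 FPKM at 0 min (log2 change -2.42 ± 0.28, adjusted p 9.67e-05). Gohir.D04G153900 had 20.1, 7.17 and 19.7 FPKM at 180 min, against 94.0, 44.6 and 62.1 FPKM at 0 min (log2 change -2.08 ± 0.36, adjusted p 0.00120). Both kept their calls whichever library was left out. Gohir.A09G049400 had 7.16, 0.501 and 15.7 FPKM at 180 min, against 34.3, 28.7 and 32.5 FPKM at 0 min (log2 change -2.48 ± 0.67, adjusted p 0.0160). Gohir.D09G050500 had 9.46, 2.19 and 32.8 FPKM at 180 min, against 74.0, 51.3 and 61.6 FPKM at 0 min (log2 change -2.59 ± 0.69, adjusted p 0.0146) and was not called without stem 180 min replicate 2 (adjusted p 0.0581). All 4 of these genes were also called lower in root at 180 min, with log2 changes of -2.35, -2.27, -3.35 and -3.15. At 60 min the abundant root genes Gohir.D09G156700, Gohir.A09G161000, Gohir.A11G328100 and Gohir.D04G065400 were called lower in stem as well, where their levels at 0 min were low. None of these root genes was called in stem at 180 min. Gohir.D09G156700 had 0.518, 2.26 and 1.55 FPKM at 60 min, against 12.01, 7.92 and 40.2 FPKM at 0 min (log2 change -2.85 ± 0.65, adjusted p 0.00887), and its call held whichever library was left out. Gohir.A09G161000 was not called without any 1 of stem 0 min replicate 3, or stem 60 min replicates 1 and 3 (adjusted p 0.0525 to 0.0885). The same was so for Gohir.A11G328100 without any 1 of stem 0 min replicates 2 and 3, or stem 60 min replicates 1, 2 and 3 (adjusted p 0.0783 to 0.169), and for Gohir.D04G065400 without any 1 of stem 0 min replicates 1 and 3, or stem 60 min replicates 1, 2 and 3 (adjusted p 0.0570 to 0.143).

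Across the tissues, 79 of the 145 genes of the family tested in any tissue were called at 180 min in at least 1, where 62% of all genes were. Of the 145, 51 were called in 1 tissue, 23 in 2 and 5 in 3, where the shares of all genes were 39%, 17.7% and 5.31%. Many genes were not tested in every tissue, so a call in 1 tissue is not a call in that tissue alone. The 5 were all called higher: Gohir.D12G221700, Gohir.A11G025600, Gohir.A12G212400, Gohir.A03G014300 and Gohir.D10G238300. Gohir.A03G014300 had log2 changes of 2.43 in leaf, 2.10 in root and 2.08 in stem, and Gohir.D10G238300, a gene of low level, 0.70, 0.72 and 0.71. Some of these calls depended on single libraries. In leaf, that of Gohir.A03G014300 was lost without any 1 of leaf 0 min replicate 2, or leaf 180 min replicates 2 and 3 (adjusted p 0.0706 to 0.108). That of Gohir.D10G238300 was lost in leaf without any 1 of leaf 0 min replicates 2 and 3, or leaf 180 min replicates 1 and 2 (adjusted p 0.0532 to 0.107) and in stem without any 1 of stem 0 min replicate 2, or stem 180 min replicates 1 and 2 (adjusted p 0.0679 to 0.0889). Shared calls were counted among the genes tested in both tissues of a pair. Leaf and stem shared 13 of 87, where 9.7% of all genes were called in both. These were 41.9% of the 31 leaf calls and 50% of the 26 stem calls, where the shares over all genes were 49.9% and 32.5%, and all 13 went the same way, as did 92.2% of the calls shared over all genes. Root and stem shared 16 of 70, where 20.8% of all genes were called in both. These were 41.0% of the 39 root calls and 72.7% of the 22 stem calls, against 37.6% and 69.1% over all genes, and 15 went the same way, where 88.7% did over all genes. The exception, Gohir.A11G020100, had 10.0, 9.01 and 7.38 FPKM in root at 180 min, against 4.82, 4.58 and 6.70 FPKM in root at 0 min. In stem it had 6.95, 10.3 and 8.74 FPKM at 180 min, against 20.7, 17.2 and 12.6 FPKM at 0 min. Its root call was lost without any 1 of root 0 min library x, or root 180 min replicate 1 (adjusted p 0.0520 to 0.0568). Leaf and root shared 9 of 53, where 12.8% of all genes were called in both. These were 60% of the 15 leaf calls and 31.0% of the 29 root calls, against 66.4% and 23.2% over all genes, and 5 went the same way, where 73.5% did over all genes.

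**Figure D4:**
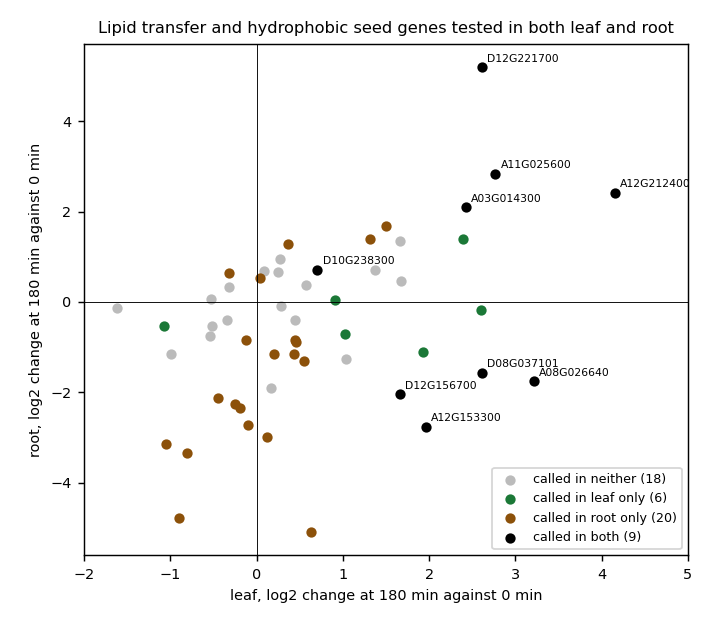
Log2 change at 180 min against 0 min in leaf (x axis) and in root (y axis) for the 53 genes of the family tested in both tissues, coloured by where they were called; the 9 called in both are named. Of these 9, 5 lie in the upper right and 4 (Gohir.A08G026640, Gohir.D08G037101, Gohir.A12G153300 and Gohir.D12G156700) in the lower right, higher in leaf and lower in root.

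The 4 genes that went opposite ways were all probable lipid transfer genes. Gohir.A08G026640 (chromosome A08, 3246944 to 3249627, minus strand) had 15.6, 16.8 and 24.0 FPKM in leaf at 180 min, against 1.40, 0.842 and 1.09 FPKM in leaf at 0 min (log2 change 3.21 ± 0.24, adjusted p 2.14e-06). In root it had 1.55, 1.70 and 2.18 FPKM at 180 min, against 6.86, 8.08 and 10.6 FPKM at 0 min (log2 change -1.75 ± 0.19, adjusted p 4.60e-06). Leaf and root thus changed places: root was the higher at 0 min and leaf at 180 min, with no overlap between libraries at either time. Gohir.D08G037101, named after YLS3, a gene of Arabidopsis expressed in yellowing leaves, had 6.96, 10.3 and 12.7 FPKM in leaf at 180 min, against 1.42, 0.410 and 0.577 FPKM in leaf at 0 min. It had 1.06, 2.47 and 2.16 FPKM in root at 180 min, against 5.37, 5.96 and 12.3 FPKM in root at 0 min. Gohir.A12G153300 had 4.58, 7.47 and 4.69 FPKM in leaf at 180 min, against 1.40, 0.230 and 0.551 FPKM in leaf at 0 min. In root it held 0, 0.255 and 1.36 FPKM at 180 min, against 10.5, 11.9 and 5.23 FPKM in root at 0 min. In both of these genes, too, root was the higher at 0 min and leaf at 180 min, with no overlap. The log2 changes in leaf and root were 2.61 and -1.57 for Gohir.D08G037101, 1.96 and -2.76 for Gohir.A12G153300, and 1.66 and -2.05 for Gohir.D12G156700. These 4 genes were chosen because they were called in opposite directions, so a test of the difference between leaf and root on the same libraries would add nothing to these values. None of the 4 was called in stem at 180 min.

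Over the family, the response across the 4 times differed between leaf and root in 55 of the 146 genes (limma F test of the interaction; 42.8% of all genes), between leaf and stem in 20 (15.3% of all genes) and between root and stem in 34 (36.9% of all genes). The leaf and stem count was 10 with a pseudocount of 0.1, and the root and stem count was 52 without root 180 min replicate 3. Of the 55, 20 and 34 genes, 41, 12 and 21 stayed called whichever library was left out. At 180 min alone, 43 genes changed more upwards in leaf than in root and 14 less, where 16.1% and 18.3% of all genes did so, and the median of the difference was 0.71 on the log2 scale, against -0.02 over all genes. Between leaf and stem, 14 were more upwards in leaf and 3 less, where 5.31% and 5.54% of all genes did so. Between root and stem, 12 were more upwards in root and 23 less, where 15% and 13.1% of all genes did so. All 146 genes entered these comparisons, while 53 had passed the filter in both leaf and root. A gene near the floor in leaf cannot fall there, so a fall in root alone can count as more upwards in leaf. These counts therefore do not separate a different response from absence in a tissue.

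The neighbouring hydrophobic seed protein genes of chromosomes A11 and D11 differed from one to the next. On both chromosomes the first gene of the run was present in all 3 tissues and rose in stem, as given above: Gohir.A11G025600 on A11 and Gohir.D11G025300 on D11. Gohir.A11G025600 had 165, 422 and 480.2 FPKM in root at 180 min, against 14.6, 95.4 and 61.3 FPKM in root at 0 min (log2 change 2.83 ± 0.74, adjusted p 0.00528). In leaf it had 261, 79.7 and 14.4 FPKM at 180 min, against 11.3, 23.2 and 2.47 FPKM at 0 min (log2 change 2.77 ± 0.84, adjusted p 0.0334). These leaf groups overlap, and the call was lost without any 1 of leaf 0 min replicates 1 and 3, or leaf 180 min replicates 1 and 2 (adjusted p 0.0611 to 0.139). Gohir.D11G025300 had 531, 136 and 31.3 FPKM in leaf at 180 min, against 66.1, 68.7 and 14.8 FPKM in leaf at 0 min (log2 change 1.66 ± 0.91, adjusted p 0.224), which was not called.

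A further 6 genes of these runs had root as their main tissue and were called lower there at 180 min. Gohir.A11G026166 had 0, 3.28 and 86.2 FPKM in root at 180 min, against 121, 176 and 127 FPKM at 0 min (log2 change -4.29 ± 1.31, adjusted p 0.0130), a call lost without root 180 min replicate 1 (adjusted p 0.0693). Gohir.D11G025575 had 3.57, 9.40 and 20.9 FPKM in root at 180 min, against 65.2, 102 and 75.4 FPKM at 0 min (log2 change -2.99 ± 0.90, adjusted p 0.0119), a call lost without root 180 min replicate 1 (adjusted p 0.0562). In both, the libraries at 180 min were spread out, replicate 1 the lowest and replicate 3 the highest, and all lay under those at 0 min. The other 4, Gohir.A11G025800, Gohir.D11G025525, Gohir.D11G025601 and Gohir.D11G025651, were called lower at 180 min with log2 changes between -3.30 and -2.50. Each of these calls was lost without root 180 min replicate 1, root 180 min replicate 2 or root 0 min library x, those of Gohir.A11G025800, Gohir.D11G025525 and Gohir.D11G025651 also without library y, and that of Gohir.D11G025525 also without root 0 min replicate 2 (adjusted p 0.0532 to 0.154). Still others were listed at 0 in root at 0 min. Gohir.A11G026100 had 4.98 ± 1.02 FPKM in leaf and 10.0 ± 6.72 FPKM in stem at 0 min (SD, n = 3 each). Gohir.D11G025626 had 6.22 ± 5.43 FPKM in leaf and 36.1 ± 30.9 FPKM in stem at 0 min (SD, n = 3 each). Neither was called at 180 min in leaf or stem. Gohir.A11G026000, also on A11, had 176, 115 and 34.0 FPKM in stem at 180 min, against 5.54, 8.38 and 4.39 FPKM in stem at 0 min (log2 change 3.69 ± 0.60, adjusted p 0.000876).

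**Figure D5:**
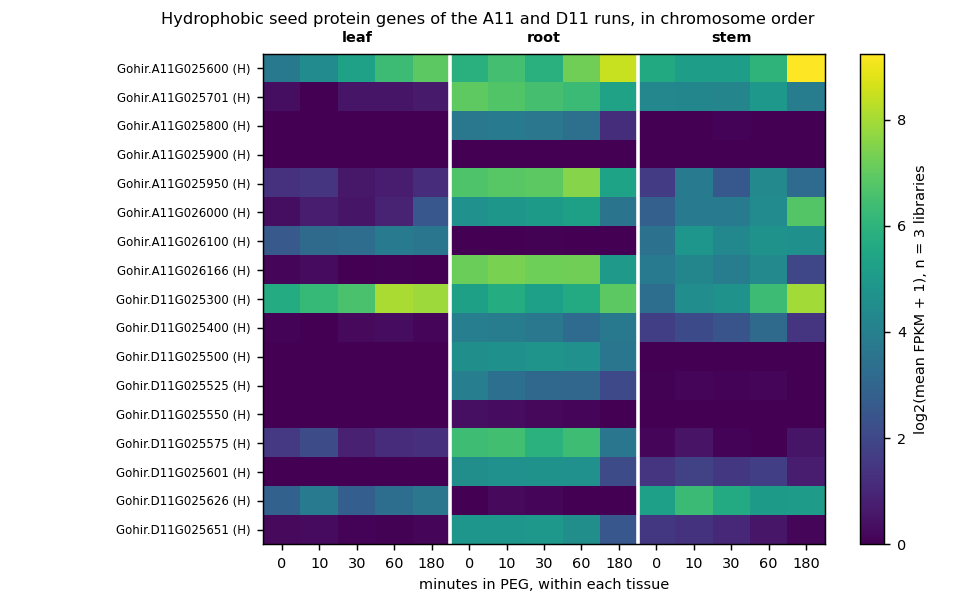
Mean level of the hydrophobic seed protein genes of the A11 run (upper 8 rows) and the D11 run (lower 9 rows) in chromosome order, as log2(mean FPKM + 1) over the 3 libraries of each group, by tissue and minutes in PEG. The first gene of each run is bright in all 3 tissues, most others are bright in root and darker there at 180 min, and Gohir.A11G026100 and Gohir.D11G025626 are dark in root.

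The calls at 180 min were also counted by subgenome. In leaf 14 were higher and 2 lower of 44 tested genes on A, where 9.77% and 9.78% of all A genes were called, and 15 higher and 1 lower of 47 on D, where 10% and 9.46% of all D genes were called. In root 11 were higher and 16 lower of 51 on A (28.6% and 27.1% of all A genes), and 9 higher and 14 lower of 50 on D (28.4% and 26.7% of all D genes). In stem 11 were higher and 6 lower of 58 on A (15% and 14.7% of all A genes), and 9 higher and 4 lower of 53 on D (15% and 14% of all D genes).

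Lipid transfer proteins are often expressed along with the enzymes that make surface lipids, so 120 genes with descriptions of fatty acid elongation, wax, cutin or acyl transfer were set beside them. The list holds some acyltransferases with other roles. In leaf at 180 min 27 of the 73 tested were called higher and 2 lower, where 9.89% and 9.61% of all genes were, and the median log2 change was 0.50. In root at 180 min 17 of 46 were called higher and 8 lower (28.5% and 26.9% of all genes), with a median of 0.10. The 17 included 5 genes with the glycerol-3-phosphate acyltransferase N-terminal domain. They also included Gohir.D01G066300, Gohir.D09G121000 and Gohir.A05G053300, named 1-acyl-sn-glycerol-3-phosphate acyltransferases, while Gohir.A01G196300, named likewise, was called lower. The root count is therefore not one of wax and cutin genes alone. In stem at 180 min 25 of 75 were called higher and 4 lower (15% and 14.3% of all genes), with a median of 0.32. Gohir.A03G146400, named 3-ketoacyl-CoA synthase 6, which in Arabidopsis elongates fatty acids for wax, had 146 ± 22.3 FPKM in leaf at 180 min, against 24.8 ± 8.12 FPKM in leaf at 0 min (SD, n = 3 each; log2 change 2.55 ± 0.24, adjusted p 1.07e-05). Gohir.A05G333900, with the WAX2 domain of wax synthesis genes, had 225 ± 11.6 FPKM in leaf at 180 min, against 18.3 ± 15.3 FPKM in leaf at 0 min (SD, n = 3 each; log2 change 3.86 ± 0.49, adjusted p 0.000144). The groups of both genes did not overlap. The list had members that fell as well. Gohir.A05G019700, of the fatty acid elongation type, had 6.18 ± 2.53 FPKM in stem at 180 min, against 82.6 ± 41.1 FPKM in stem at 0 min (SD, n = 3 each; log2 change -3.50 ± 0.33, adjusted p 2.72e-05). In root, 5 of the 6 genes with the glycerol-3-phosphate acyltransferase N-terminal domain rose, by 2.91 to 3.36 on the log2 scale, of which Gohir.D11G030600 had 71.8 ± 34.5 FPKM in root at 180 min, against 5.59 ± 1.033 FPKM in root at 0 min (SD, n = 3 each; log2 change 3.36 ± 0.33, adjusted p 1.96e-06). Another of the 5, Gohir.A03G000032, is named a chloroplastic enzyme, so these rises are no measure of surface lipid synthesis. Gohir.A08G004500, named fatty acyl-CoA reductase 3, and Gohir.A07G109900, with the WAX2 domain, were called lower in root at 180 min (log2 changes -2.93 and -0.91). Fatty acid elongation genes went both ways there, with Gohir.A08G240100 at 1.17 and Gohir.A05G019700 at -1.03. The summed level of the list was 2422 to 3162 FPKM in leaf at 180 min, against 1004 to 1317 FPKM in leaf at 0 min.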

How the data were processed

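RNA of leaf, root and stem was sequenced at 5 times, 3 libraries per group. HISAT2 2.0.5 was the aligner and featureCounts 1.5.0-p3 the counter, per the submitters' processing notes. The authors deposited FPKM, 1 column per library, with gene coordinates and descriptions. Read back through gene length, 100% of the values were whole reads to a tolerance of 0.01 read, at most 0.00597 off. The library denominators equalled median-of-ratios size factors over 42188 genes above 0 in all libraries, with a largest relative difference of 3.55e-08. All value columns were assigned to groups (0 left over). RefSeq names were not used, since 0 identifiers were found in its table, and sequences were not used here.

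Genes reaching 1 FPKM in 3 or more of the libraries fitted were tested as log2(FPKM + 1), which understates the change of low genes. limma 3.58.1 in R 4.3.3 (empirical Bayes with trend and robust settings) was fitted per tissue to 15 libraries, and to all 45 for tissue differences at 0 min and for differences of response. All single-gene tests are from limma, with Benjamini-Hochberg adjustment over all genes tested and calls at an adjusted p under 0.05; the scripts were tested on simulated data. A log2 change is given ± its standard error, and a mean ± the standard deviation. A call was said to hold when it passed with each library of its 2 groups left out in turn (90 refits in all).

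The members and lists were chosen with earlier results of these data known. Named genes were the 10 with the highest mean, those with the 3 largest rises and 3 largest falls at each time among called genes whose groups did not overlap, the 3 largest tissue differences each way at 0 min, and the 3 smallest interaction p-values per tissue pair. Chosen after their values were seen were the genes with opposite responses, those called in all 3 tissues, the genes of the A11 and D11 runs, the D09 and A09 neighbours, the root genes led by replicate 1, the further leaf risers with no Swiss-Prot name, Gohir.A11G020100, Gohir.D04G183200 and the surface lipid genes named. Alternatives were a pseudocount of 0.1, no filter, scaling to each library's own total, a replicate block and leaving out each library.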

Additional observations from a re-analysis of the deposited data

Results flagged for a closer look

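The response over the 4 times differed between tissues in 55 genes of the family for leaf and root, in 20 for leaf and stem and in 34 for root and stem (limma F test of the interaction). These were 37.7%, 13.7% and 23.3% of the genes tested, below the 42.8%, 15.3% and 36.9% of all genes. A gene nearly absent from a tissue can be counted here through its change in the other tissue alone. For leaf and root the smallest adjusted p-values were those of Gohir.A08G026640 (3.15e-09), Gohir.A12G153300 (2.70e-08) and Gohir.A09G161000 (3.62e-07), the first and second called higher in leaf and lower in root at 180 min and the other called lower in root. The p-values and those calls rest on the same libraries, so the p-values are no further support for the calls. For leaf and stem they were those of Gohir.D10G116200 (5.30e-06), Gohir.A12G219500 (1.47e-05) and Gohir.A01G144500 (3.40e-05). Gohir.D10G116200 had a log2 change at 180 min of 3.47 in leaf and 0.23 in stem. For root and stem they were those of Gohir.A09G161000 (5.67e-06), Gohir.A07G174300 (1.88e-05) and Gohir.A12G210900 (2.06e-05).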

How the results depend on the processing

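Across the alternatives no result changed direction. Scaling each library to its own total moved no count of called genes by more than 1.5 times. With a pseudocount of 0.1 the leaf count at 10 min was 2 (0 with 1) and the count for the leaf and stem responses 10 (20 with 1). With no filter on low values the stem count at 30 min was 1, against 2. With each library left out in turn, the counts ran from 0 to 1 (leaf 10 min), 3 to 8 (leaf 30 min), 2 to 5 (leaf 60 min), 23 to 35 (leaf 180 min), 2 to 10 (root 10 min), 34 to 67 (root 180 min), 0 to 2 (stem 30 min), 5 to 24 (stem 60 min), 16 to 31 (stem 180 min), 19 to 34 (stem over the 4 times) and 27 to 52 (responses of root and stem). The stem count at 30 min was 0 without stem 0 min replicate 3, stem 30 min replicate 1 or stem 30 min replicate 3, and 1 without stem 0 min replicate 1. The cause of these shifts was not tested. Replicate numbers did not pair the libraries: the deviations of same-numbered libraries from their group means correlated above 0.1 in 9 of 30 pairs in leaf, 7 of 22 in root and 9 of 30 in stem. The replicate block left out root libraries x and y, which carry no number, so that root at 0 min kept 1 library, assumed to vary like the other groups. With it the root counts were 1, 7, 9 and 29 at 10, 30, 60 and 180 min, against 8, 17, 24 and 50. Of the tests of single named genes, calls were lost in 68 and kept in 626 with a library left out, in 5 with no filter, in 2 with own-total scaling, in 10 with the block and in 0 with the other pseudocount. Read totals per library limit what can be said of genes under about 1 FPKM, and multi-copy neighbours cannot be separated beyond the authors' counting.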
